A study of Arabidopsis thaliana with 6 samples.

Results

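The UDP-glycosyltransferases (UGTs) examined here are the 47 genes to which the array's gene annotation gives a probe set of their own and a symbol beginning with UGT, out of 13350 genes with such a probe set. They fall into 11 numbered UGT groups, from UGT71 to UGT88. No member had more than 1 such probe set, and no member's probe set carries a suffix that marks a sequence shared between genes. The 3 probe sets that the annotation assigns to a UGT gene together with another gene were not used.

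RNA came from cotyledons of Arabidopsis thaliana plants, ecotype Col-0, aged 4 days, and was hybridised to Affymetrix arrays with 1 sample per array. The genotypes compared were wild type, the single mutant sicy-192 and sicy-192 gun1-101, called the double mutant here, each with 2 arrays that the labels number as biological replicates. All plants shared a medium with 100 mM sucrose and days of 16 h light and 8 h darkness at 25 °C and 22 °C, and the light was 100 µmol per square metre and second. In sicy-192 a plastid invertase, an enzyme that splits sucrose, carries a gain-of-function change. GUN1 is a plastid protein of retrograde signalling, by which plastids influence nuclear genes. Each mutation is represented by a single allele, and the gun1-101 single mutant was not analysed here, so the double mutant can be set only against sicy-192 and against the wild type. The gene table gives neither GUN1 nor the invertase gene INV-E a probe set of its own. Probe sets shared with another gene were not searched, so the labels were not checked on the mutated genes. Nothing states that replicates were raised separately, so p-values measure only the spread between these samples.

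UGTs of this family move a sugar, most often glucose, from a UDP-sugar onto a small acceptor molecule in the cytosol. Their acceptors include flavonols and anthocyanidins, hydroxycinnamic acids such as sinapate, monolignols, plant hormones, glucosinolate precursors and foreign compounds. Attachment of the sugar makes the acceptor more soluble, often ends a hormone's activity and allows storage in the vacuole. The number in a UGT name marks a subfamily by sequence similarity, and the letter and last number mark the member.

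Levels are given as signal, the linear brightness of a probe set after each array was scaled to the same trimmed mean of 500. Levels of different genes cannot be ranked against each other, because probe sets differ in brightness. Changes are differences of log2(signal + 16), which understate the change of dim probe sets, and are given with the standard error (SE) of the limma fit. A gene was called changed at a Benjamini-Hochberg adjusted p under 0.05, adjusted over all 14785 probe sets tested. Of the 47 members, 24 had a mean level above the 35th percentile of all probe sets, equal to a signal of 50.3, and were tested. The other 23 were dim and are given below by their signals. All 24 tested members also lay above this level in the mean of every genotype, so none was tested only because it was high in a single group.

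Of the 24 tested UGT genes, 14 were called in at least 1 of the 3 comparisons and 10 in none. Between sicy-192 and wild type 5 were higher and 2 lower, or 29.2% of those tested, against a background of 23% of all probe sets. Between the double mutant and sicy-192 8 were higher and 2 lower, or 41.7%, against 20.7% of all probe sets. Between the double mutant and wild type 10 were higher and 1 lower, or 45.8%, against 30.1% of all probe sets. The first count fell to 4, all higher, without wild-type replicate 1 (15% of all probe sets called), and the second to 6, with 5 higher and 1 lower, without double-mutant replicate 2 (9.85%). The labels name no shared batch, but a bacterial spike control, bioB, was brighter on all replicate 1 arrays than on any replicate 2 array. With the replicate number as a block the counts were 11 (6 higher, 5 lower), 14 (11 and 3) and 14 (11 and 3), against 36.6%, 33.3% and 43% of all probe sets. A weaker count, of genes whose 2 groups of arrays do not overlap, took in 13, 19 and 18 of the 24 in the 3 comparisons, against 63.7%, 62.4% and 66.8% of all probe sets, so on its own it says little about a gene.

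Relative to sicy-192, 33.3% of the tested UGT genes were called higher, against 9.54% of all probe sets, and 8.33% lower, against 11.2%, in the double mutant. From wild type to the double mutant 41.7% were called higher, against 17.3%, and 4.17% lower, against 12.8%. From wild type to sicy-192 20.8% were called higher, against 13.8%, and 8.33% lower, against 9.21%. In that comparison the split of higher to lower calls depended on the scaling of the arrays, with 5 higher and 4 lower after quantile normalization and 4 higher and 4 lower after centring the arrays on their medians.

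**Figure D1:**
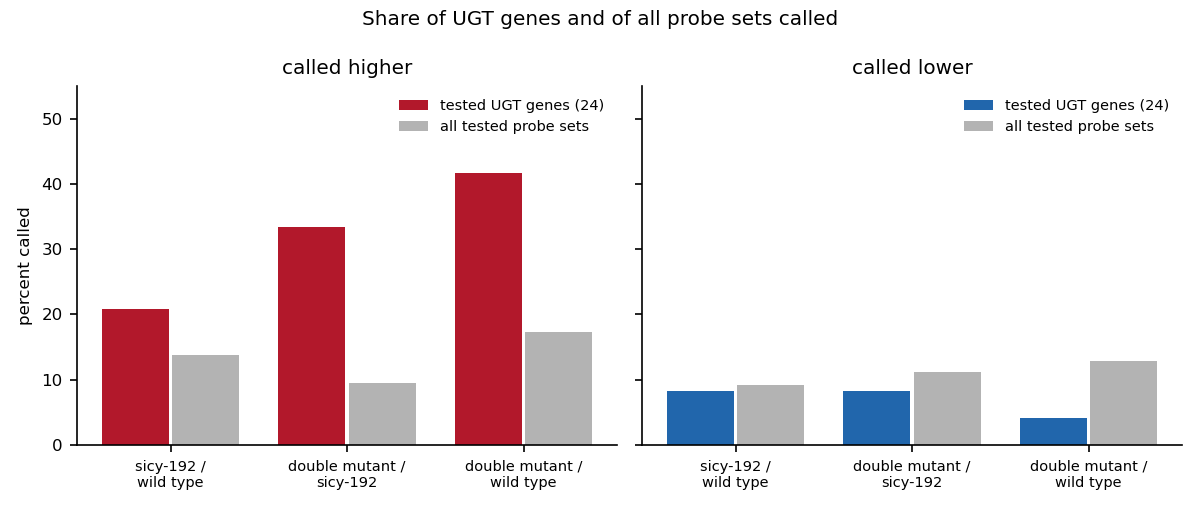
Bars show the percentage of the 24 tested UGT genes (coloured) and of all 14785 tested probe sets (grey) called higher (left) or lower (right) in each comparison, from 0. Higher calls in the double mutant stand at 33.3% against 9.54% relative to sicy-192, and at 41.7% against 17.3% relative to wild type.

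The median change of the tested members was -0.01 from wild type to sicy-192, 0.29 between sicy-192 and the double mutant, and 0.30 from wild type to the double mutant. The medians of all tested probe sets were 0.16, -0.05 and 0.07, so the members' medians lay -0.17, 0.34 and 0.23 from them. The first median had no stable sign and was -0.15 after quantile normalization and -0.21 after centring on the medians. The median of all tested probe sets moved too, and was 0.05 in this comparison after quantile normalization. The second was 0.18 with all probe sets tested and 0.49 with a filter at the 50th percentile. The third was 0.81 with that stricter filter, 0.15 without double-mutant replicate 1 and 0.49 without wild-type replicate 2. Computed within the replicate 1 arrays and within the replicate 2 arrays, the members' medians were 0.04 and 0.05 in the first comparison, 0.23 and 0.22 in the second, and 0.47 and 0.19 in the third. The 3 comparisons share arrays, since sicy-192 enters the first 2 of them and each other genotype also enters 2, so their values are set side by side and not counted as separate evidence. The median size of a member's change regardless of sign was 0.41, 0.59 and 0.74 in the 3 comparisons, against 0.33, 0.30 and 0.36 for all probe sets.

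**Figure D2:**
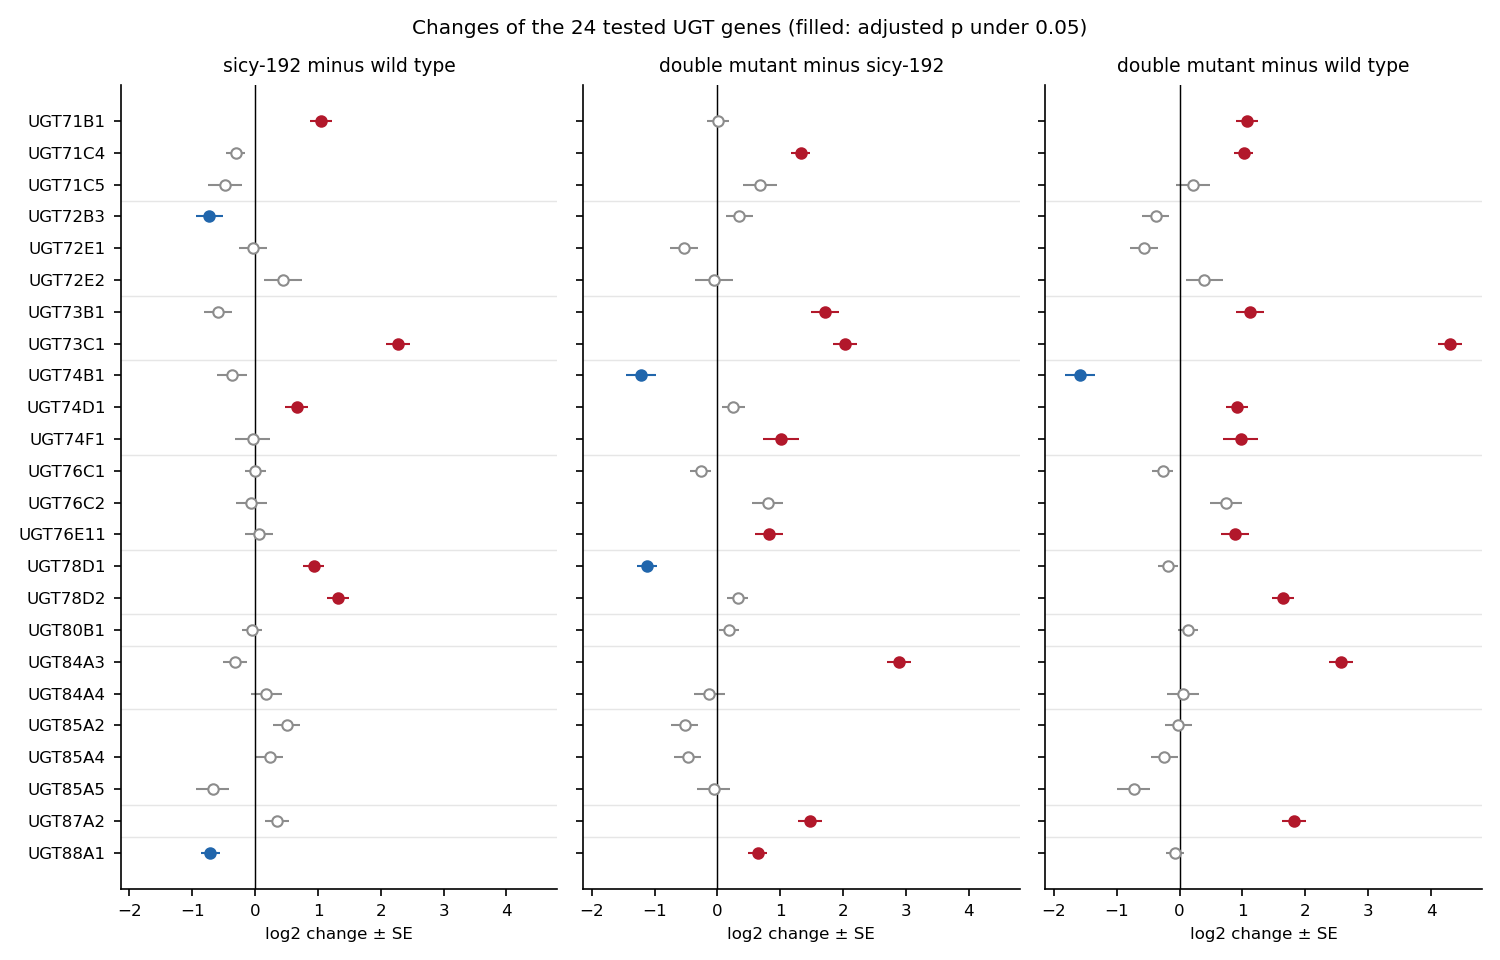
Each point is the log2 change of a tested UGT gene with its standard error, in the 3 comparisons, ordered by UGT group; filled red points were called higher, filled blue points lower, and open grey points were not called. UGT73C1 is called higher in all 3 panels, at 2.27, 2.03 and 4.30.

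Other measurements on the arrays move with the genotypes beside all these values. The 5 mesophyll marker genes with a probe set of their own were RCA, PRK, SBPASE, LHCB4.1 and LHCB4.2. Their summed signal was 101965 to 133387 in wild type, 33359 to 43640 in sicy-192 and 61295 to 76083 in the double mutant. All 5 were called lower in sicy-192 against wild type (9.21% of all probe sets). In the double mutant 4 were called higher against sicy-192 (9.54%) and 4 lower against wild type (12.8%). None of these 5 markers was dim. A control that detects 25S ribosomal RNA had a signal of 452 and 1763 in wild type, 1378 and 1173 in sicy-192, and 7778 and 8361 in the double mutant. Their part in the UGT changes was not tested. In whole cotyledons, fewer cells of a type and less RNA per cell cannot be told apart. Of 2 root genes with a probe set, PYK10, a glucosidase gene best known from roots, had signals of 16879 to 21943 over all arrays and no called change (largest size -0.15, adjusted p = 0.538 in limma), and EXPA7, a root hair expansin, was dim at 3.17 to 28.0. No seed storage gene of the list used had a named probe set.

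Flavonoid glycosylation was represented by the UGT78D genes, which act on the 3-hydroxyl of flavonols. UGT78D2 (AT5G17050), the flavonoid 3-O-glucosyltransferase that also glucosylates anthocyanidins, had signals of 1069 and 1361 in wild type, 2803 and 3300 in sicy-192, and 3440 and 4211 in the double mutant. Every sicy-192 array lay above every wild-type array, and every double-mutant array above every sicy-192 array. The gene rose in sicy-192 by 1.32 ± 0.17 (adjusted p = 0.000775 in limma) and stood 1.64 ± 0.17 above wild type in the double mutant (adjusted p = 0.000285). The further step of 0.32 from sicy-192 to the double mutant did not pass (adjusted p = 0.223).

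UGT78D1 (AT1G30530), the flavonol 3-O-rhamnosyltransferase, differed from UGT78D2 in the double mutant. Its signals were 1278 and 1668 in wild type, 2759 and 2836 in sicy-192, and 1199 and 1364 in the double mutant. The sicy-192 arrays were high and the arrays of the other genotypes overlapped. It rose in sicy-192 by 0.93 ± 0.16 (adjusted p = 0.0035) and fell from there to the double mutant by 1.12 on the log2 scale (SE 0.16, adjusted p = 0.0017). Between the double mutant and wild type the change was -0.19 (adjusted p = 0.404). UGT78D3, the flavonol 3-O-arabinosyltransferase, was dim on every array, with signals of 1.41 to 7.72. The same direction of calls as UGT78D2 was seen for UF3GT, an anthocyanin xylosyltransferase gene that RefSeq lists as UGT79B1 and that is outside the 47 by its symbol. Its signals were 885 and 1118 in wild type, 3806 and 3952 in sicy-192, and 4060 and 4267 in the double mutant. UF3GT is 1 of 4 genes that only RefSeq names as UGTs. Of the others, GT72B1 and SGT had no call, and AT5G54010 (UGT79B6) was dim. AT5G54010 had signals of 2.76 and 1.47 in wild type, 17.7 and 9.80 in sicy-192, and 3.16 and 1.77 in the double mutant.

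UGT88A1 (AT3G16520), whose enzyme glucosylates flavonols in vitro, moved the other way from UGT78D1. Its signals were 4204 and 3466 in wild type, 2433 and 2219 in sicy-192, and 3743 and 3526 in the double mutant. The sicy-192 arrays were low, and the wild-type and double-mutant arrays overlapped. The gene fell in sicy-192 by 0.71 on the log2 scale (SE 0.15, adjusted p = 0.00821) and rose from there by 0.64 ± 0.15 (adjusted p = 0.0145), leaving -0.07 between the double mutant and wild type (adjusted p = 0.745; 0.055 after quantile normalization). Both calls depended on single arrays. The fall lost its call when wild-type replicate 1 (adjusted p = 0.0513) or sicy-192 replicate 2 (0.054) was left out. The rise lost its call when sicy-192 replicate 2 (0.0804), double-mutant replicate 1 (0.0852) or double-mutant replicate 2 (0.0622) was left out.

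In the UGT71 group, with 9 members of which 3 were tested, UGT71B1 and UGT71C4 changed and UGT71C5 did not pass. UGT71B1 (AT3G21750), active on flavonols in vitro, had signals of 486 and 354 in wild type, 919 and 841 in sicy-192, and 858 and 920 in the double mutant. Both mutant groups lay above the wild type and overlapped each other. The change was 1.05 ± 0.17 in sicy-192 (adjusted p = 0.00269) and 1.07 ± 0.17 in the double mutant against wild type (adjusted p = 0.0024), with 0.01 between the mutants (adjusted p = 0.965).

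UGT71C4 (AT1G07250), likewise known from flavonol assays in vitro, had signals of 676 and 588 in wild type, 496 and 515 in sicy-192, and 1185 and 1410 in the double mutant. The double-mutant arrays were the high ones. It rose from sicy-192 to the double mutant by 1.33 ± 0.15 (adjusted p = 0.000649) and stood 1.02 ± 0.15 above wild type (adjusted p = 0.00171), after a change of -0.31 in sicy-192 that did not pass (adjusted p = 0.175). UGT71C5 (AT1G07240), which glucosylates the hormone abscisic acid, had signals of 271 and 246 in wild type, 128 and 255 in sicy-192, and 314 and 290 in the double mutant. Its sicy-192 replicates lay far apart, and its changes of -0.47, 0.69 and 0.21 in the 3 comparisons did not pass (lowest adjusted p = 0.106). Without sicy-192 replicate 2 the first was -0.93 and the second 1.14, and both were then called, with a single sicy-192 array left.

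The UGT84A genes encode enzymes that form glucose esters of hydroxycinnamic acids, among them sinapoylglucose, the activated form from which seedlings make the sunscreen ester sinapoylmalate. UGT84A3 (AT4G15490) had signals of 208 and 237 in wild type, 144 and 209 in sicy-192, and 1341 and 1441 in the double mutant. Wild type and sicy-192 overlapped, and the double-mutant arrays lay far above both. It rose from sicy-192 to the double mutant by 2.89 ± 0.19 (adjusted p = 7.68e-05) and was 2.56 ± 0.19 above wild type (adjusted p = 5.25e-05), while sicy-192 differed from wild type by -0.33 (adjusted p = 0.252).

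UGT84A4 (AT4G15500), the other tested member, had signals of 130 and 84.0 in wild type, 120 and 121 in sicy-192, and 124 and 95.8 in the double mutant. The 3 genotypes overlapped, with changes of 0.18, -0.13 and 0.05 (lowest adjusted p = 0.641; after centring on the medians the first was -0.015 and the third -0.039). UGT84A1 was dim, at 2.63 to 36.1 over the 6 arrays. UGT84B1, known as an auxin glucosyltransferase, and UGT84B2 were dim as well, at 2.99 to 23.0 and 1.84 to 18.6.

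The UGT73 group includes enzymes that conjugate foreign compounds and several hormones. UGT73C1 (AT2G36750), reported to glucosylate cytokinins and reduction products of the explosive TNT, was called in every comparison. Its signals were 70.0 and 74.0 in wild type, 338 and 496 in sicy-192, and 1676 and 1765 in the double mutant. The 3 genotypes were fully separated and rose in that order. The change was 2.27 ± 0.19 in sicy-192 (adjusted p = 9.12e-05), a further 2.03 ± 0.19 from sicy-192 to the double mutant (adjusted p = 0.000286) and 4.30 ± 0.19 between the double mutant and wild type (adjusted p = 5.83e-06). Among the 47 members this was the largest change in any comparison of the limma fit.

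UGT73B1 (AT4G34138), active on flavonoids and abscisic acid in vitro, had signals of 185 and 239 in wild type, 130 and 138 in sicy-192, and 389 and 582 in the double mutant. The groups did not overlap, with sicy-192 lowest and the double mutant highest. Relative to sicy-192 it rose in the double mutant by 1.71 ± 0.22 (adjusted p = 0.00117), and it stood 1.12 ± 0.22 above wild type (adjusted p = 0.00624). The latter call was lost without double-mutant replicate 2 (0.84, adjusted p = 0.0538). The change of -0.59 in sicy-192 did not pass (adjusted p = 0.0885), but passed after quantile normalization and after centring on the medians. It also passed with the replicate number as a block.

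Hormone conjugation by the UGT74 group involved UGT74D1 and UGT74F1. UGT74D1 (AT2G31750), an auxin glucosyltransferase, had signals of 1250 and 1527 in wild type, 1867 and 2575 in sicy-192, and 2571 and 2663 in the double mutant. Both mutant groups lay above wild type, and the sicy-192 replicate 2 array reached the double-mutant level. The gene was 0.91 ± 0.18 above wild type in the double mutant (adjusted p = 0.0056) and 0.66 ± 0.18 above it in sicy-192 (adjusted p = 0.0275). The second call disappeared when wild-type replicate 1 (0.52, adjusted p = 0.131) or sicy-192 replicate 2 (0.43, adjusted p = 0.169) was left out. It also missed the threshold after centring on the medians (0.47, adjusted p = 0.142), with all probe sets tested (0.0548) and with no variance trend (0.0559).

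UGT74F1 (AT2G43840), which glucosylates the defence hormone salicylic acid, had signals of 67.7 and 47.2 in wild type, 42.7 and 69.1 in sicy-192, and 121 and 132 in the double mutant. The double-mutant arrays were the high ones, while the other genotypes overlapped near the level of the filter. Its rise was 1.01 ± 0.28 from sicy-192 (adjusted p = 0.032) and 0.97 ± 0.28 from wild type (adjusted p = 0.0293). The first call disappeared without sicy-192 replicate 1 (adjusted p = 0.194), double-mutant replicate 1 (0.108) or double-mutant replicate 2 (0.154). The second was lost without wild-type replicate 2 (0.124), double-mutant replicate 1 (0.0992) or double-mutant replicate 2 (0.131), and both were lost without the filter (0.0838 and 0.0738).

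The third tested gene of the group, UGT74B1 (AT1G24100), acts in glucosinolate synthesis, where its enzyme glucosylates the sulphur atom of thiohydroximates. It had signals of 2113 and 1602 in wild type, 1774 and 1138 in sicy-192, and 704 and 514 in the double mutant. Wild type and sicy-192 overlapped and the double mutant lay below both. It fell by 1.22 on the log2 scale from sicy-192 to the double mutant (SE 0.24, adjusted p = 0.00747) and was the only member called lower in the double mutant against wild type (-1.59 ± 0.24, adjusted p = 0.00171). The fall from sicy-192 was lost without double-mutant replicate 2 (-1.0, adjusted p = 0.062).

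In the UGT76 group, UGT76C1 and UGT76C2 encode the enzymes that attach glucose to a ring nitrogen of cytokinins. UGT76C2 (AT5G05860) had signals of 284 and 495 in wild type, 307 and 420 in sicy-192, and 640 and 637 in the double mutant. Its double-mutant arrays lay above all others, but the changes of 0.80 from sicy-192 and 0.74 from wild type lay just past the threshold (adjusted p = 0.0501 and 0.0509) and passed under several alternatives. UGT76C1 (AT5G05870) had signals of 268 and 267 in wild type, 285 and 253 in sicy-192, and 227 and 213 in the double mutant. Its double-mutant arrays were the lowest, with changes of -0.27 against sicy-192 and -0.27 against wild type that did not pass (adjusted p = 0.293 and 0.259).

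UGT76E11 (AT3G46670), reported to glucosylate flavonoids, had signals of 437 and 588 in wild type, 470 and 594 in sicy-192, and 782 and 1140 in the double mutant. The double-mutant arrays lay above those of the other genotypes, which overlapped. It rose by 0.82 ± 0.22 from sicy-192 (adjusted p = 0.0293) and was 0.88 ± 0.22 above wild type (adjusted p = 0.0171). Without double-mutant replicate 2 both calls were lost (0.55, adjusted p = 0.205, and 0.61, adjusted p = 0.126). The first also missed the threshold without sicy-192 replicate 1 (adjusted p = 0.149), without the filter (0.0664) and without the variance trend (0.0539), and the second without wild-type replicate 1 (0.0899).

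UGT87A2 (AT2G30140), a gene linked to the timing of flowering, had signals of 464 and 325 in wild type, 460 and 541 in sicy-192, and 1346 and 1489 in the double mutant. The double-mutant arrays stood far above the others, and the wild-type and sicy-192 arrays overlapped. The rise was 1.48 ± 0.19 from sicy-192 (adjusted p = 0.00102) and 1.82 ± 0.19 from wild type (adjusted p = 0.000264), with 0.35 between sicy-192 and wild type (adjusted p = 0.213).

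The UGT72 group, which includes glucosyltransferases of monolignols, the building blocks of lignin, had a single call. UGT72B3 (AT1G01420) had signals of 254 and 319 in wild type, 191.8 and 142 in sicy-192, and 193 and 238 in the double mutant. The wild-type arrays were the highest and the sicy-192 arrays the lowest. It fell by 0.73 on the log2 scale in sicy-192 (SE 0.21, adjusted p = 0.0374). The call disappeared when wild-type replicate 1 (-0.89, adjusted p = 0.0502), wild-type replicate 2 (-0.57, adjusted p = 0.167) or sicy-192 replicate 2 (-0.53, adjusted p = 0.192) was left out, or all probe sets were tested (adjusted p = 0.0821).

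UGT72E1 (AT3G50740), active on the aldehyde precursors of monolignols, had signals of 170 and 131 in wild type, 129 and 165 in sicy-192, and 93.8 and 98.2 in the double mutant. Its double-mutant arrays were the lowest, at -0.56 from wild type (adjusted p = 0.0871) and -0.53 from sicy-192 (adjusted p = 0.126). UGT72E2 (AT5G66690), a coniferyl alcohol glucosyltransferase, had overlapping values in the double mutant and each other genotype, and none of its changes passed (lowest adjusted p = 0.307). UGT72E3 was dim at 1.69 to 24.4.

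The 4 tested genes of the UGT80 and UGT85 groups were called in no comparison of the limma fit. They were UGT80B1, a sterol glucosyltransferase, and UGT85A2, UGT85A4 and UGT85A5. Their changes ran from -0.67 to 0.50 in sicy-192 against wild type (lowest adjusted p = 0.0983), from -0.52 to 0.18 in the double mutant against sicy-192 (0.12) and from -0.73 to 0.13 in the double mutant against wild type (0.0648). UGT85A5 passed against wild type after quantile normalization (-0.85 for sicy-192 and -0.79 for the double mutant, adjusted p = 0.0355 and 0.0382 in limma) and after centring on the medians (-0.87 and -0.82, adjusted p = 0.0426 and 0.0393). With the replicate number as a block UGT85A5 passed there too (adjusted p = 0.0276 and 0.0158 in limma). UGT85A2 then passed in sicy-192 against wild type (0.50, adjusted p = 0.0179) and in the double mutant against sicy-192 (-0.52, adjusted p = 0.0162).

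**Figure D3:**
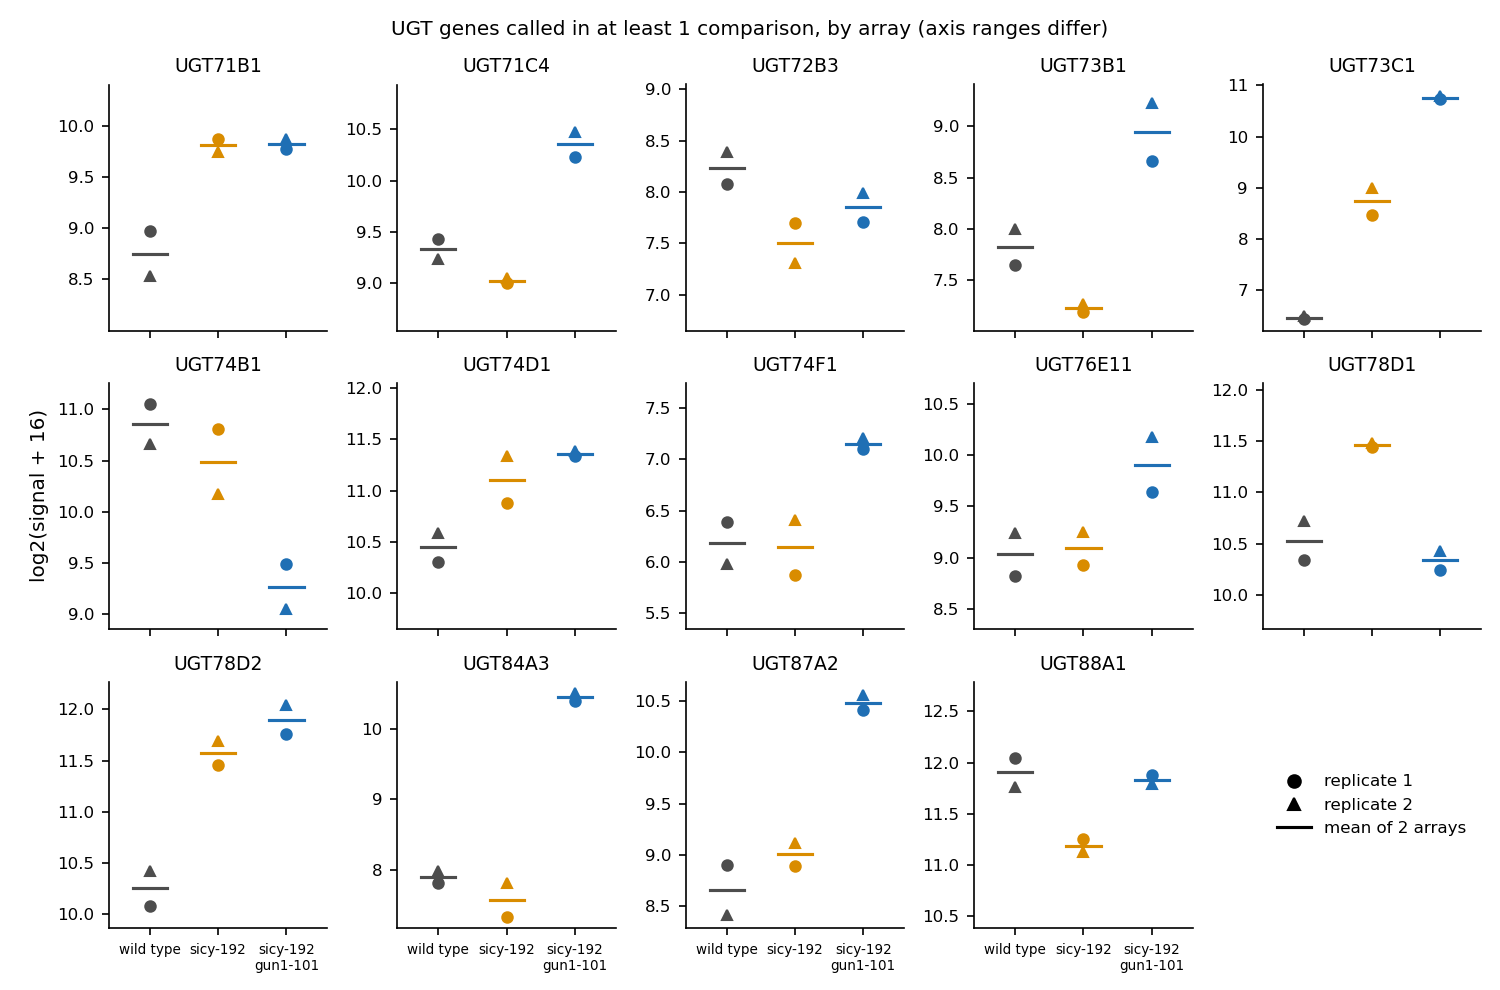
Each panel shows log2(signal + 16) of a UGT gene called in at least 1 comparison, by genotype; circles are replicate 1, triangles replicate 2 and bars the mean of the 2 arrays, and axis ranges differ between panels. UGT71C4, UGT73B1, UGT73C1, UGT74F1, UGT76E11, UGT78D2, UGT84A3 and UGT87A2 have both double-mutant arrays above all others, and UGT78D1 both sicy-192 arrays.

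Among the 23 dim members, 3 exceeded the filter level in the mean of the double mutant. They were singled out by that level, so their high double-mutant arrays are a description and not a separate result. UGT76E12 had signals of 13.4 and 8.91 in wild type, 14.9 and 12.5 in sicy-192, and 239 and 132 in the double mutant. UGT73B4, whose product also acts on TNT reduction products, had 4.57 and 11.9 in wild type, 31.4 and 6.42 in sicy-192, and 114 and 66.2 in the double mutant. UGT76E2 had 46.8 and 27.1, then 56.8 and 27.5, then 103 and 64.8. Their levels in wild type and sicy-192 were close to or below the added 16 for the first 2 genes, so the size of a fitted change depends on it.

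When all 22746 probe sets were tested without the filter, with 11.5%, 10.3% and 15.5% of them called in the 3 comparisons, UGT76E12 rose by 2.71 ± 0.34 from sicy-192 and by 2.85 ± 0.34 from wild type (adjusted p = 0.00484 and 0.00291 in limma). UGT73B4 was called against wild type (2.11, adjusted p = 0.0191) and not against sicy-192 (1.66, adjusted p = 0.0546). UGT76E2 was called in neither (adjusted p = 0.259 and 0.161 in limma). These 3 genes were singled out by their double-mutant level, so this fit gives them no separate support. UGT71C2 had signals of 4.85 and 3.85 in wild type, 23.8 and 51.0 in sicy-192, and 46.6 and 32.5 in the double mutant. It was called against wild type in both mutants (1.34 and 1.44, adjusted p = 0.0441 and 0.0289 in limma). Its mean lay under the filter in every genotype. Its wild-type signals were below the added 16, so the size of these changes depends on that value. Over all 47 members this fit called 5 higher and 1 lower in the first comparison, 7 and 2 in the second, and 12 and 1 in the third. The median of all 47 was 0.03, 0.18 and 0.29.

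The other 20 dim members had signals between 0.424 and 63.2 on all arrays. They include UGT71B6, known to glucosylate abscisic acid, at 1.43 to 53.8, and UGT76B1, which conjugates salicylic acid and isoleucic acid, at 1.61 to 39.9. They also include UGT76E1 at 0.424 to 11.1 and UGT73D1 at 0.737 to 12.2. UGT71C3 lay at 30.4 to 63.2, and UGT85A7 was above the filter only in the mean of wild type, with 59.6 and 50.9.

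**Figure D4:**
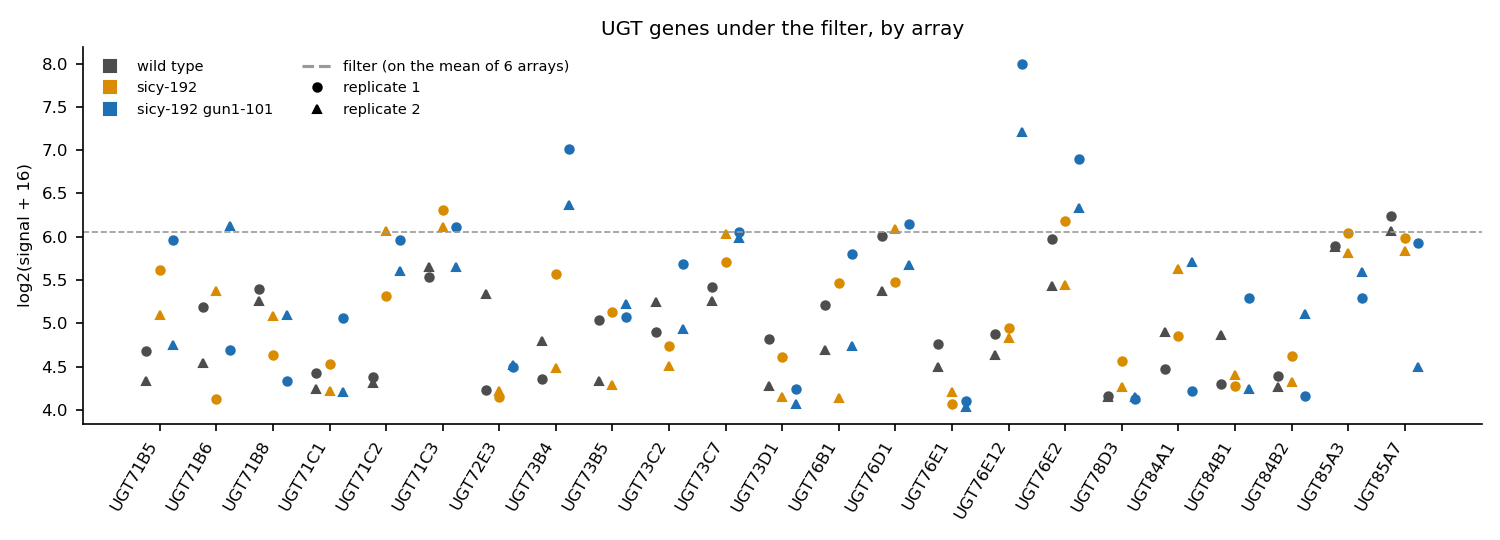
Points show log2(signal + 16) of the 23 dim UGT genes on each array; colours are genotypes, circles replicate 1 and triangles replicate 2, and the dashed line is the filter on the mean of the 6 arrays. UGT76E12, UGT73B4 and UGT76E2 have both double-mutant arrays above the line.

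Many UGT genes stand side by side in the genome. In the gene order of the RefSeq table (assembly TAIR10.1), 24 of the 47 members form 10 runs in which each is the direct neighbour of the next among protein-coding genes. Of these runs, 5 hold no tested member, 1 holds exactly 1 and 4 hold at least 2. UGT84A3, which rose by 2.89 from sicy-192 to the double mutant, lies between UGT84A1, dim on all arrays, and UGT84A4, with a change of -0.13 there. UGT71C4, with a rise of 1.33, lies between UGT71C5 (0.69, adjusted p = 0.106) and the dim UGT71C3.

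UGT73C1 neighbours UGT73C2, which was dim at 6.66 to 35.6 on all arrays, while UGT73C1 reached 1765 in the double mutant. In the run of UGT76C2 and UGT76C1 the changes from sicy-192 to the double mutant were 0.80 and -0.27, and neither passed. In the run of UGT85A7, UGT85A2, UGT85A5 and UGT85A3 no member was called in the limma fit. In the run of UGT73B5 and UGT73B4 the former had 17.6 and 21.4 in the double mutant, within its range in the other genotypes or just above it, and the latter 114 and 66.2. Differences in change between neighbours were not tested.

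**Figure D5:**
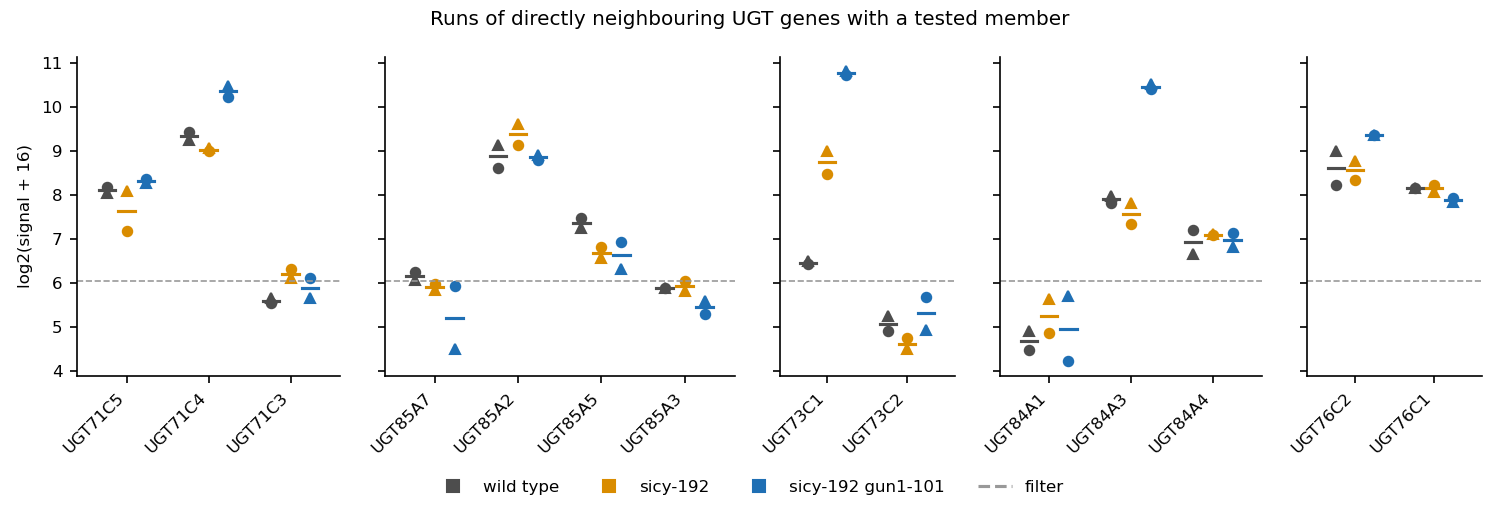
Each panel is a run of directly neighbouring UGT genes that holds a tested member, in genome order; points show log2(signal + 16) per array (circles replicate 1, triangles replicate 2), bars the mean of 2 arrays and the dashed line the filter. In the run with UGT84A3, the double-mutant arrays are high for that gene and not for UGT84A1 or UGT84A4; levels of different genes are not comparable.

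Few other genes of the pathways around these enzymes could be read, because the gene table names few of them. Of 17 listed phenylpropanoid and sinapate genes 2 were tested and neither was called by limma: HCT, a hydroxycinnamoyl transferase of lignin synthesis (-0.46, 0.32 and -0.14 in the 3 comparisons, lowest adjusted p = 0.0571), and ALDH2C4, the dehydrogenase that forms ferulate and sinapate (-0.03, 0.40 and 0.38, lowest adjusted p = 0.0686). Of 17 genes that supply UDP-sugars only USP, a UDP-sugar pyrophosphorylase gene, was tested, with changes of -0.08, 0.08 and 0.00 (lowest adjusted p = 0.746). No gene of the flavonol list (8 loci) or the glucosinolate list (11 loci) had a named probe set of its own.

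Of 12 genes listed for detoxification and oxylipin response 2 were tested. GSTU25, a glutathione transferase that also acts on TNT, had signals of 26.3 and 32.3 in wild type, 39.3 and 29.4 in sicy-192, and 275 and 287 in the double mutant. It passed the filter only through the double mutant, with wild-type and sicy-192 mean signals of 29.3 and 34.4, so its differences of 2.57 from sicy-192 and 2.72 from wild type are given as a description with no test. AT2G21640, a marker gene of oxidative stress, rose in sicy-192 by 4.14 and stood 3.74 above wild type in the double mutant (adjusted p = 1.96e-05 and 1.81e-05). Between the mutants it had a change of -0.40 (adjusted p = 0.261).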

How the data were processed

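The authors deposited an intensity on a linear scale for every probe set of every array. The submitters' processing notes name GCOS, with no version in the sources used here. After trimming 2% from either end, all columns averaged 500, which shows that the intensities had been scaled before deposit. Each array was rescaled to exactly that mean, 16 was added and log2 was taken. Of 22810 probe sets, 64 controls were left out, and the 14785 above the 35th percentile of the mean log2 value were tested, two-sided, by moderated statistics in limma 3.58.1 under R 4.3.3 with a variance trend in eBayes. All 6 arrays entered 1 fit with 3 residual and 6.27 prior degrees of freedom. Adjustment was by Benjamini-Hochberg over all tested probe sets. Replicates correlated at r = 0.979 to 0.983 across tested probe sets, which are not independent. The bacterial bioB spike (3' probe set) gave 271 to 349 on replicate 1 arrays and 21.5 to 28.7 on replicate 2 arrays. Genes were named from the platform annotation, and all 47 members matched RefSeq by Entrez identifier. In a simulation of 6 arrays over 14785 probe sets, 100 log2 changes of 1 and 100 of 2 were set in sicy-192. Against wild type 83% of changes of 1 and 100% of changes of 2 were recovered, with 6.15% of calls false. The simulated noise was normal, independent between arrays and of a spread set by the mean level alone. Same-numbered real arrays deviated together and many more probe sets were called, so these rates need not hold for the data.

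Named with array values are members called in at least 1 comparison and with changes those of the same UGT group. Values per array of some further genes, and all details on dim members beyond their range, were added after the values were seen. Members and lists were chosen with earlier results of these data known. The number of arrays limits the precision. No promoter or protein sequences were used here.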

Additional observations from a re-analysis of the deposited data

How the results depend on the processing

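The alternatives were offsets of 1 and 64, testing all probe sets or only those above the 50th percentile, quantile normalization, values as deposited, centring on medians, no variance trend, only the arrays compared, the replicate number as a block, RefSeq names for membership and leaving out each array. None of the 28 called changes turned its sign under any of them, and 1 call was lost by scaling, that of UGT74D1. Averaging probe sets changed nothing, as no member has more than 1. Across alternatives the number of calls kept under all was 4 of 7 (sicy-192 against wild type), 6 of 10 (double mutant against sicy-192) and 8 of 11 (double mutant against wild type). Without single arrays the counts were 4 (without wild-type replicate 1) to 7, 6 (without double-mutant replicate 2) to 11, and 8 to 11. With the replicate number as a block they were 11, 14 and 14. The block added UGT73B1, UGT74B1 and UGT85A5 (lower) and UGT85A2 (higher) in sicy-192 against wild type. It added UGT71C5, UGT76C2 and UGT78D2 (higher) and UGT85A2 (lower) in the double mutant against sicy-192, and UGT76C2 (higher), UGT72E1 and UGT85A5 (lower) in the double mutant against wild type. Same-numbered arrays deviated together (r = 0.44, 0.33 and 0.37 between genotypes), as the bioB spike did, but the labels name no shared batch and there are only 2 numbers. Without single arrays, UGT85A2 was also called in sicy-192 against wild type (without wild-type replicate 2). UGT71C5 was called there and in the double mutant against sicy-192 without sicy-192 replicate 2. UGT76C2 was called in the double mutant against sicy-192 (without sicy-192 replicate 2) and against wild type (without wild-type replicate 2). UGT85A5 was called in the double mutant against wild type (without double-mutant replicate 1).

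The median change in sicy-192 against wild type was 0.035 without the filter, -0.025 with the 50th percentile, -0.15 with quantile normalization, -0.21 after centring, 0.053 with RefSeq names and between -0.0024 and 0.17 without single arrays, so it had no stable sign. In the double mutant against sicy-192 it was 0.26 with an offset of 64, 0.18 without the filter, 0.49 with the 50th percentile, 0.28 with quantile normalization, 0.39 after centring, 0.25 with RefSeq names and 0.22 to 0.37 without single arrays. In the double mutant against wild type it was 0.81 with the 50th percentile filter, which tests 18 members, and 0.15 to 0.49 without single arrays. The filter alternatives left the fitted change of each member as it was. They altered only which members entered the median, 47 without the filter and 18 with the 50th percentile. The cause of the other shifts was not tested.

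Only changes that had not been called turned sign. With quantile normalization and after centring, sicy-192 against wild type gave -0.17 and -0.19 for UGT76C1 and -0.092 and -0.135 for UGT76E11, and the double mutant against sicy-192 gave 0.068 and 0.048 for UGT72E2. UGT85A5 was 0.064 with quantile normalization and 0.044 after centring in the double mutant against sicy-192. In the double mutant against wild type, quantile normalization gave 0.055 for UGT88A1 and -0.019 for UGT80B1. After centring, the change of UGT84A4 from wild type was -0.015 in sicy-192 and -0.039 for the double mutant. Without single arrays, sicy-192 against wild type ranged from -0.078 to 0.084 for UGT76C1, -0.15 to 0.27 for UGT76E11, -0.094 to 0.45 for UGT84A4, -0.20 to 0.14 for UGT72E1, -0.31 to 0.23 for UGT74F1 and -0.44 to 0.32 for UGT76C2. The double mutant against sicy-192 ranged from -0.30 to 0.19 for UGT72E2, -0.048 to 0.077 for UGT71B1 and -0.29 to 0.037 for UGT84A4. The double mutant against wild type ranged from -0.21 to 0.068 for UGT88A1, -0.22 to 0.32 for UGT84A4 and -0.38 to 0.00056 for UGT78D1.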
